A study of Mus musculus with 8 samples.

Results

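The T cell receptor gene segments were examined as 55 of the 46624 distinct regions in which open chromatin was counted. A region was taken when a gene symbol given to it in the authors' count table began with Trav, Traj, Trdv, Trbv, Trbj or Trgv or was that of a listed constant segment, and a region listed for several segments was taken once. This leaves out 3 regions of gamma V segments whose symbols begin with Tcrg-V, and their values are given beside the gamma region. Of the 55, 42 lie in the alpha/delta locus on chromosome 14, 12 in the beta locus on chromosome 6 and 1 in the gamma locus on chromosome 13. The alpha locus was singled out because its regions were low in male against female visceral adipose tissue (VAT) regulatory T cells, so that contrast is described here with no test.

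All cells came from C57BL/6 mice with a Foxp3 RFP reporter, in which red fluorescence marks regulatory T cells (Tregs), and were collected by flow cytometry. There were 4 groups with 2 libraries each: Tregs (RFP-positive) from male spleen, Tregs from male VAT, Tregs from female VAT, and CD4 T cells without RFP from male VAT. Each library held cells pooled from 3 mice. The labels give no age, no tie between the mice of different groups and no receptor typing of the sorted cells, and p-values measure only the spread between these libraries. The assay was ATAC-seq, in which a transposase cuts accessible DNA, and the libraries held 5724685 to 15805270 counts in regions. Values are CPM, counts relative to the library total, scaled with trimmed-mean factors, n is 2 in each group, and ± is the SD after a CPM and an approximate standard error after a log2 fold change. Regions are called where the adjusted p was below 0.05 in edgeR's quasi-likelihood test with Benjamini-Hochberg adjustment over 45709 regions.

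The sort was checked at Foxp3, the gene of the Treg lineage factor. At its region on chromosome X from 7582208 to 7585993, both CD4 libraries, at 1.54 and 2.16 CPM, lay below all 6 Treg libraries, which ran from 13.6 to 32.9 CPM.

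A T cell receptor gene is assembled in the thymus by V(D)J recombination, which joins 1 of many variable (V) segments to a joining (J) segment, with a diversity segment between them in the beta and delta chains. In the alpha locus the V segments lie upstream, the delta constant segment Trdc in the middle, and the J segments and the alpha constant segment Trac downstream. Joining a V to a J of alpha removes the DNA between them, delta segments included, and a cell can do so more than once with V segments farther out and J segments farther in. In a mature T cell the number of DNA copies at a segment therefore depends on the joins its 2 alleles carry. Accessibility in a pool of cells can be lower because fewer cells have the region open, because fewer copies of it are left, or because each copy is less open, and these cannot be told apart here.

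The alpha/delta regions were grouped by position into 35 V regions of alpha, cut in order of position into 3 runs: the first of 12, the second of 12 and the third of 11, nearest the J segments, then 2 regions assigned to the V segments Trav21/dv12 and Trdv1, 2 upstream J regions and 3 regions at the downstream J segments and Trac. The 37 V regions are short, 77 to 363 bp with a median of 103 bp. RefSeq lists 130 Trav segments, and 42 Trav symbols are among the regions. The runs therefore order the regions in the table and do not cover all V segments. By the RefSeq positions of the segments, 3 of them overlap a segment, 23 lie within 500 bp of one without overlap and 11 lie farther, up to 4830 bp. Of the 23, 22 lie on the lower-coordinate side of their nearest segment and 1 on the higher-coordinate side. All of them are inside the annotated Tcra locus, and their names are the table's assignments, not proof of which segment they act on.

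None of the 111 segment symbols has a promoter in the RefSeq sequence table used. The sequence of 1 region could be read because it lies within the promoter window of the neighbouring predicted gene Gm30214. It is the region assigned to Trav8d-2 and Trav16d-dv11, the outermost of the 42 alpha/delta regions. It is also the only one of the 37 V regions whose mean was not highest in CD4 cells. The window is chr14:53039417-53039716 on the minus strand of GRCm38.p6, and capitals mark the 79 bases of the region, taking the table's starts as counted from 0 (an assumption made because some entries start at 0).
Gm30214 promoter window: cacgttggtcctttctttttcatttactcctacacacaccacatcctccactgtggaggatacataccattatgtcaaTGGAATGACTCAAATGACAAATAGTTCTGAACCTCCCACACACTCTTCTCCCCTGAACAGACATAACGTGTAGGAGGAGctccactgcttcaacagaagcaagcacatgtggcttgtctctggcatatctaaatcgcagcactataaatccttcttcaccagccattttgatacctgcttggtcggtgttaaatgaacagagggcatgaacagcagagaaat
On both strands the window holds 1 copy of CACAGTG, the consensus heptamer of recombination signal sequences, outside the capitals, and 6.81% of the 32851 RefSeq promoters of the same length hold at least 1. It holds 3 copies of CANNTG, the E-box letters, of which 1 is in capitals, and 72.3% of promoters hold one. TGACGTCA, the cyclic AMP response element, is not among these letters and is in 1.79% of promoters. The matches are a description of the letters.

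Taken as a sum, the V regions of alpha and delta were most accessible in the reporter-negative CD4 cells and least in male VAT Tregs. The place of male VAT below spleen Tregs was not borne out by calls at single regions, as given below. Summed over the 37 regions, the 2 male VAT Treg libraries held 19.3 and 13.6 CPM and the spleen Treg libraries 26.9 and 24.8 CPM. The female VAT Treg libraries held 45.1 and 51.5 CPM, and the CD4 libraries 267 and 102 CPM. The 4 groups did not overlap in this sum and stood in the order male VAT Treg, spleen Treg, female VAT Treg and CD4. The place of male below female VAT Tregs belongs to the contrast that chose the locus and is no separate evidence. The female libraries were part of that choice, which also favoured their place above spleen Tregs. The CD4 mean was 7.13 times the spleen mean, but CD4 replicate 1 held 2.63 times as much as replicate 2, and replicate 2 alone was 3.93 times the spleen mean.

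**Figure D1:**
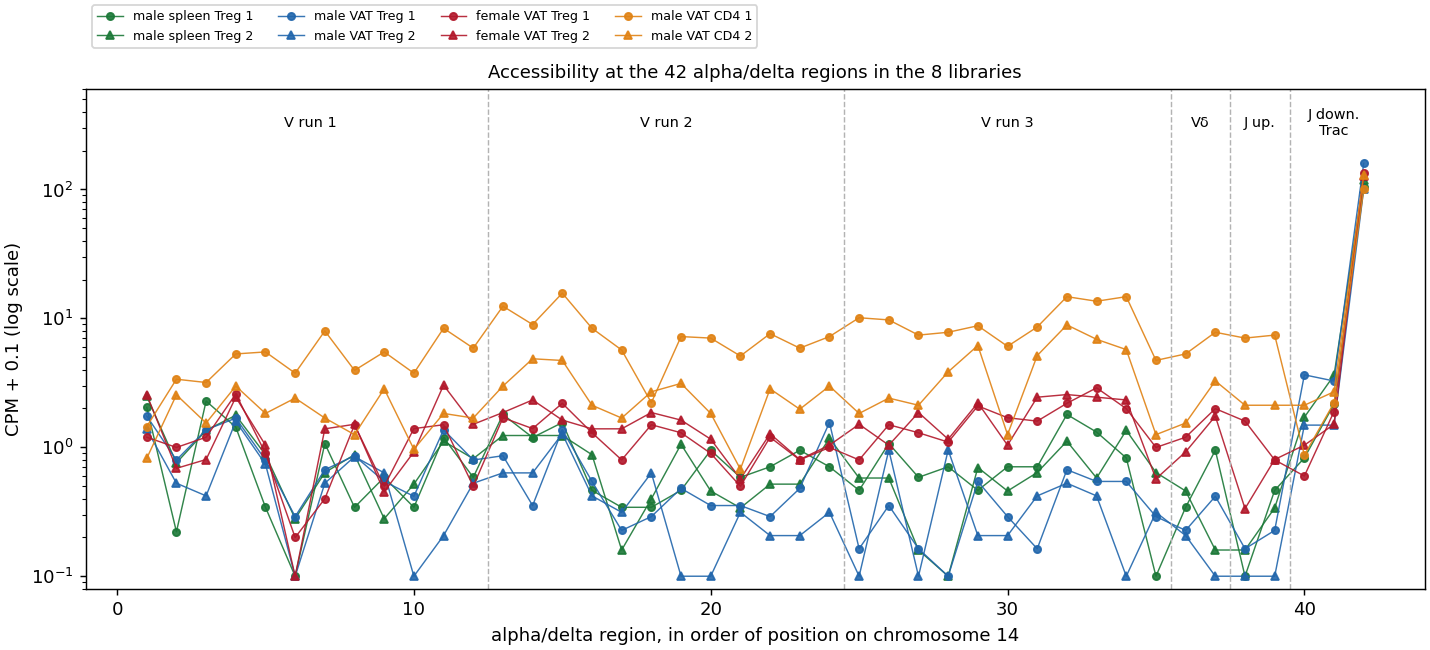
CPM plus 0.1 on a log axis at each of the 42 alpha/delta regions, in order of position on chromosome 14, with 1 line per library (circles replicate 1, triangles replicate 2) and dashed lines between the stretches. The CD4 lines lie above the others over most V and both upstream J regions (Vδ and J up. on the plot) and meet them at the 3 downstream regions (J down. and Trac).

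Region by region, the order was much the same. The CD4 mean was the highest of the 4 group means at 36 of the 37 V regions, against 29.2% of all regions tested and 20.2% of those under 1000 bp. Both CD4 libraries lay above all 6 Treg libraries at 31 of the 37, against 7.47% of all regions. The male VAT Treg mean was the lowest at 27 of the 37, against 27.2% of all regions. The locus was singled out as low in male against female VAT Tregs, so the choice itself favoured this rank. Counts at single regions were small. The highest count at any V region was 81 in a CD4 library, 40 in spleen, 28 in female VAT and 26 in male VAT Tregs. No CD4 library was at 0 at any V region, while male VAT Tregs were at 0 in 9 pairs of region and library, spleen in 3 and female VAT Tregs in 1.

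Male VAT CD4 cells were compared with male spleen Tregs, since neither group was part of the male against female contrast. Tissue and cell type differ together in this comparison, so their parts cannot be told apart. Regions at the V segments and at the upstream J segments and Trdc were higher in CD4 cells, and those at the downstream J segments, Trac and the beta and gamma loci did not pass the test. Over all 42 alpha/delta regions, with no filter on low counts, 34 were called higher in CD4 cells and 0 lower, where 2.06% of all regions were called higher (3.73% of those under 1000 bp). The median log2 fold change of the 42 was 2.96, beside -0.00 over all regions. The usual low-count filter kept 40 of the 42 and called 32 higher, with 2.07% of all regions called. Only 22 of the 42 reach the filter's level in at least 2 libraries without the CD4 cells, and of these 22, 15 were called higher. These counts rest in good part on CD4 replicate 1. The share of all regions called without it is not given here, so the next count shows only the drop in calls. Without it, 7 alpha/delta regions were called higher, 6 in the V run nearest the J segments and the 1 at Trdc, and the median log2 fold change of those tested was 1.86.

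The region assigned to Trav17 on chromosome 14 from 53802550 to 53802783 was among the 10 largest called changes. Its 2 spleen Treg libraries held 1.21 and 0.48 CPM, and its CD4 libraries 13.5 and 6.78 CPM. Male VAT Tregs had 0.44 and 0.32 CPM there and female VAT Tregs 2.79 and 2.35 CPM. The 4 groups did not overlap. The log2 fold change of CD4 over spleen was 3.70 ± 0.48 (edgeR with Benjamini-Hochberg adjustment, adjusted p = 1.2e-10), and 3.12 without CD4 replicate 1 (adjusted p = 0.000335).

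At Trav14-3 a pair of regions passed the same test. From 53766582 to 53766775, which overlaps the neighbouring segment Trav15-3, spleen Tregs held 0.36 and 0.60 CPM and CD4 cells 8.67 and 6.06 CPM, a log2 fold change of 3.81 ± 0.56 (edgeR, adjusted p = 2.4e-08). Both CD4 libraries lay above the other 6 here. At the other, from 53762977 to 53763102, spleen Tregs held 0.61 and 0.00 CPM and CD4 cells 7.70 and 3.75 CPM. This other region does not reach the filter's level in 2 libraries without the CD4 cells. Of the 7 regions called without CD4 replicate 1, 2 are these and 4 are assigned to Trav17.

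In some V regions the change rested on few spleen counts. Near Trav7n-6, a segment of the outermost run, from 53324527 to 53324606, the CD4 libraries together held 35 counts and the spleen libraries 3, a ratio of CPM of 24.1 with an exact 95% interval of 7.58 to 122 that covers counting error only. Near Trav9-2, from 53590717 to 53590814, they held 40 and 3 counts, a ratio of 27.5 with an interval of 8.75 to 139. Neither region reaches the filter's level in 2 libraries without the CD4 cells, so both passed it through the group in which they are high. Both calls were lost without CD4 replicate 1.

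The region near Trav10, from 53505536 to 53505639, is also assigned to Trav11, the V segment of the invariant receptor of natural killer T cells. Spleen Tregs held 1.09 and 1.02 CPM there and CD4 cells 8.28 and 1.73 CPM. Male VAT Tregs had 1.27 and 0.11 CPM and the female cells 1.40 and 2.93 CPM. CD4 replicate 1 was the highest of the 8 libraries and female replicate 2 lay above CD4 replicate 2. The change of 2.20 ± 0.55 over spleen (edgeR, adjusted p = 0.00489) was lost without CD4 replicate 1, without spleen replicate 2, by DESeq2 and by limma on either input.

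The region assigned to Trdc, from 54147611 to 54147768, is also assigned to Trdv5 and the most upstream J segments of alpha. It overlaps no annotated segment and lies 894 bp from Trdv5. It held 6.93 and 2.02 CPM in CD4 cells. Spleen Tregs held 0.00 and 0.0597 CPM there, male VAT Tregs 0.0634 and 0.00 CPM, and female VAT Tregs 1.50 and 0.23 CPM. The male Treg libraries were at 0 or 1 count, and both CD4 libraries and both female libraries lay above them. The CD4 libraries held 50 counts together and the spleen libraries 1, a ratio of 103 with an interval of 17.7 to 4152, and the region was called higher in CD4 cells (edgeR, adjusted p = 7.7e-07). Neither this region nor the second upstream J region, given next, reaches the filter's level in 2 libraries without the CD4 cells. Both passed the filter through the group in which they are high. The second upstream J region, from 54152992 to 54153131, held 7.32 and 2.02 CPM in CD4 cells against 0.36 and 0.24 CPM in spleen Tregs (log2 fold change 3.94 ± 0.78, edgeR, adjusted p = 0.00014), a call lost without CD4 replicate 1.

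Since a region assigned to Trdc, a gamma-delta T cell gene, was high in CD4 cells, the other markers of that cell type are given beside it. Of Sox13, Blk and Cd163l1, Sox13 had no region. Blk, a kinase gene also used by B cells, was lower in CD4 cells (8.09 and 12.0 CPM) than in spleen Tregs (24.4 and 21.3 CPM). Cd163l1, a scavenger receptor gene of gamma-delta T cells, was higher in CD4 cells at 1 of its 2 regions (4.81 and 6.49 against 0.61 and 1.55 CPM). The sum over the list was 22.5 and 22.8 CPM in CD4 cells and 20.9 to 28.9 CPM in the Treg libraries. The part of other cells in the level at the region assigned to Trdc was not tested.

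The difference between CD4 cells and spleen Tregs was larger in the V runs closer to the J segments. The summed CD4 to spleen ratio of means was 3.92 in the first V run, 7.33 in the second and 11.1 in the third, and 27.6 over the 2 upstream J regions, where spleen libraries held 3 and 5 counts. Between these, the 2 V regions of delta gave 11.6. With CD4 replicate 2 alone the ratios were 2.13, 3.71 and 6.62 in the 3 runs, 6.12 at the delta V regions, which is below the third run, and 12.2 at the upstream J regions. The 3 regions at the downstream J segments and Trac gave a ratio of 1.03. The runs share libraries and depth, and no test was made of the order.

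**Figure D2:**
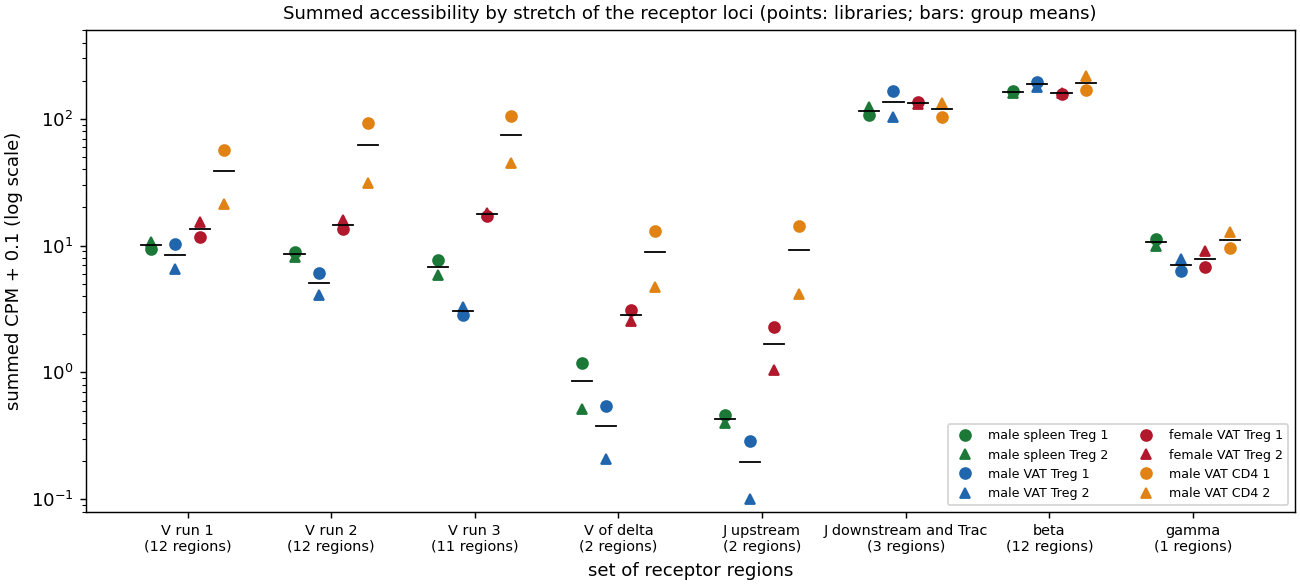
Summed CPM plus 0.1 on a log axis for each stretch of the receptor loci, with circles and triangles for replicates 1 and 2 of each group and black bars for the group means. The groups spread apart from the first V run to the upstream J regions and lie together at the downstream J and Trac regions, the beta locus and the gamma region.

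The share of V counts falling in the third run shows the same without any scaling between libraries. It was 14.5% and 23.6% for male VAT Tregs, 29.6% and 23.8% for spleen Tregs, 40.5% and 36.8% for female VAT Tregs and 41.4% and 45.8% for CD4 cells. The exact 95% intervals were 10.7% to 19.0% and 16.5% to 32.0% in male VAT Tregs and 38.7% to 44.1% and 42.0% to 49.7% in CD4 cells, for counting error only. All 4 CD4 and female libraries lay above all 4 male Treg libraries. Set against the Trac region of the same library, V counts were 12.1% and 13.6% of the Trac count for male VAT Tregs, 25.6% and 20.9% for spleen Tregs, 33.9% and 40.3% for female VAT Tregs, and 266% and 78.5% for CD4 cells. The 4 groups did not overlap in this ratio either. In the share and in the ratio, the place of male below female VAT Tregs again belongs to the contrast that chose the locus. That of female VAT above spleen Tregs was again favoured by the choice.

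**Figure D3:**
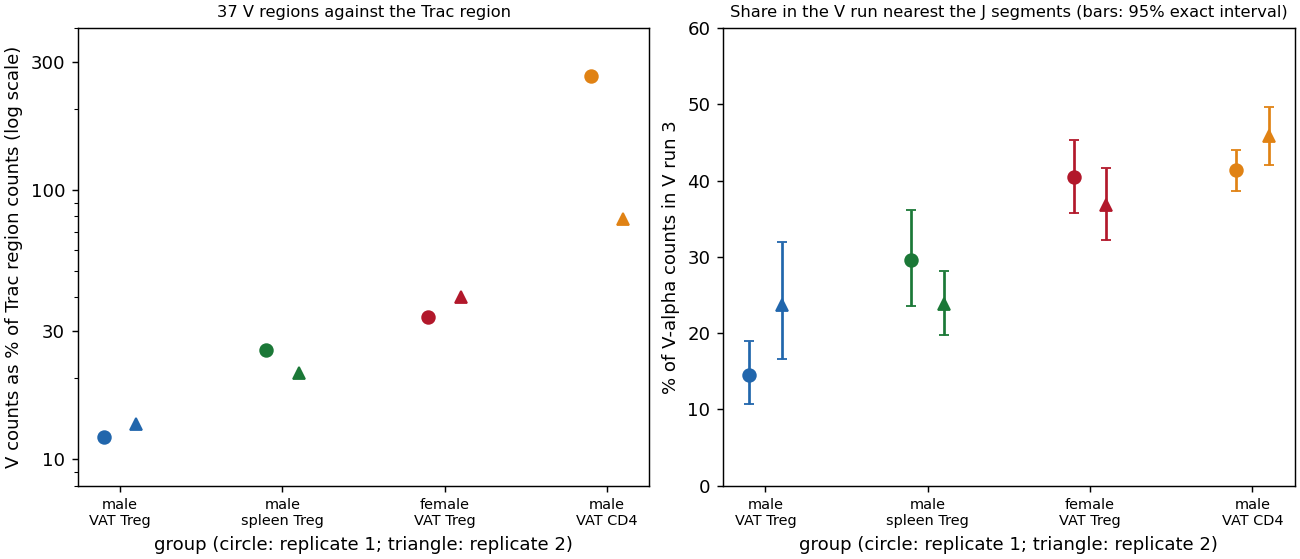
Left, counts in the 37 V regions as a percent of counts in the Trac region, on a log axis; right, the percent of V-alpha counts in the third V run with exact 95% intervals, by library (circles replicate 1, triangles replicate 2). Male VAT Treg libraries are lowest on the left at 12.1% and 13.6%, and the CD4 libraries are highest on both sides.

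The V regions did not all follow the run. The outermost, at Trav8d-2 from 53039559 to 53039638 (the one printed above), held 1.35 and 0.72 CPM in CD4 cells and 1.94 and 2.39 CPM in spleen Tregs, a log2 fold change of -1.12 ± 0.63 that did not pass the test (edgeR, adjusted p = 0.39). Male VAT Tregs had 1.65 and 1.28 CPM there and female VAT Tregs 1.10 and 2.46 CPM, so the female libraries overlapped those of each other group, while both spleen libraries lay above both CD4 and both male VAT Treg libraries. In the first run 10 of 12 regions had both CD4 libraries above both spleen libraries, against 12 of 12 in the second and 11 of 11 in the third, where 22.8% of all regions did. The first run also holds segments with d or n in their names, which are near-identical copies within the locus, and reads from copies may have been split between regions or left out in a way that is not stated.

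Male VAT Tregs were also compared with the CD4 cells of the same tissue and sex. This contrast shares its male VAT libraries with the one that singled the locus out, and its CD4 libraries with the comparison above. With no filter on low counts, 34 of the 42 alpha/delta regions were called lower in male VAT Tregs and 0 higher, where 2.49% of all regions were called lower (3.56% of those under 1000 bp). The low-count filter left 40 regions, of which 33 were called lower, where 2.51% of all regions were. Of the 22 that reach the filter's level without the CD4 cells, 15 were called lower, so the other calls are on regions that passed the filter through the group in which they are high. Without CD4 replicate 1, fewer were called lower. The share of all regions called in that setting is not given here, so no count is read.

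The region near Trav6-7-dv9, from 53709760 to 53709887, 56 bp from that segment, had the largest fold difference. Male VAT Tregs held 0.0634 and 0.00 CPM and CD4 cells 10.01 and 1.73 CPM. Spleen Tregs held 0.36 and 0.48 CPM and female VAT Tregs 0.70 and 1.41 CPM. Without the CD4 cells this region does not reach the filter's level in 2 libraries, so it passed the filter through the group in which it is high. Only 1 count stood against 64, a ratio of 133 with an interval of 23.0 to 5326 (edgeR, adjusted p = 1.4e-09), and the call held in all 16 alternative settings tried. A second such region, near Trav16 and assigned to Trav8-2, from 53741396 to 53741517, had 52 counts in CD4 cells and 1 in male VAT Tregs, a ratio of 108 with an interval of 18.5 to 4343.

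At Trav17 from 53804044 to 53804407 male VAT Tregs held 0.44 and 0.00 CPM and CD4 cells 14.6 and 5.63 CPM (log2 fold change -5.14 ± 0.56, edgeR, adjusted p = 2.1e-15). Spleen Tregs held 0.73 and 1.25 CPM and female VAT Tregs 1.90 and 2.23 CPM. The 4 groups stood in the order given for the sum. At the region assigned to Trav21/dv12 and Trdv1, from 53878737 to 53878876, a V segment shared by alpha and delta chains, male VAT Tregs held 0.32 and 0.00 CPM and CD4 cells 7.70 and 3.17 CPM (-4.71 ± 0.73, edgeR, adjusted p = 7.3e-08).

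Within Tregs, male VAT was compared with male spleen. This comparison shares its male VAT libraries with the contrast that singled the locus out. Over the 42 alpha/delta regions, with no filter on low counts, 0 were called in either direction, where 4.51% of all regions were called higher and 2.04% lower, and in edgeR 5 of 42 were lower with an unadjusted p below 0.05. With the filter, DESeq2 and limma-voom also called 0, with 4 and 3 lower at an unadjusted p. The shares of all regions at an unadjusted p are not given here, so nothing is read from these counts. The median log2 fold change of the 42 was -0.59, beside -0.01 over all regions, and it was -1.12 without male VAT Treg replicate 1 and -0.40 without replicate 2. Both spleen libraries lay above both male VAT libraries at 13 of the 37 V regions, where 23.1% of all regions did so. The V sum was 1.57 times as high in spleen, a difference that reached 2.27 times in the third run (7.64 and 5.79 against 2.72 and 3.20 CPM).

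**Figure D4:**
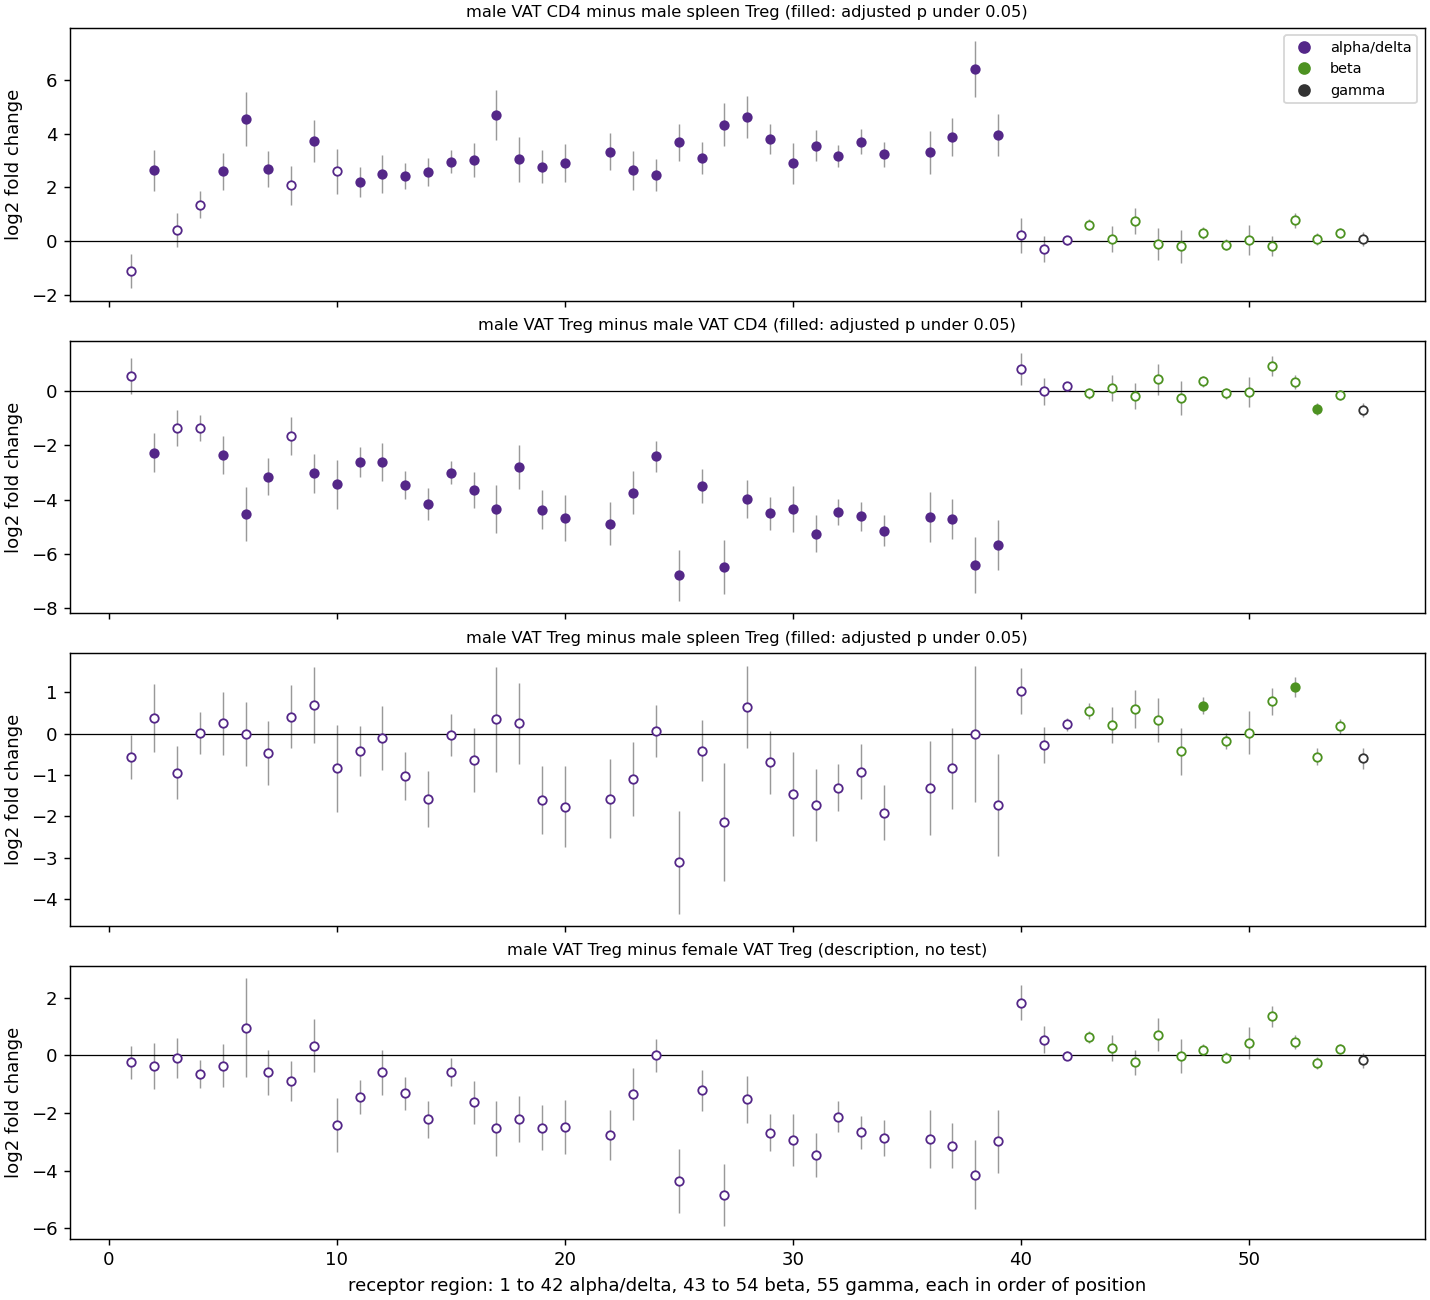
Log2 fold change with its standard error (edgeR) at each receptor region, in order of position within each locus, for 4 comparisons; filled points have an adjusted p under 0.05, and the male against female contrast is untested and so all open. In the upper 2 panels most alpha/delta points are filled and far from 0, with the 3 downstream regions (40 to 42), the beta and the gamma points near 0.

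Female VAT Tregs are described beside male VAT Tregs, the contrast that chose the locus, with no test. Both female libraries lay above both male libraries at 29 of the 37 V regions and below them at 1, where 20.5% of all regions had both female libraries above. The summed V level was 2.94 times the male level, 1.63 times in the first run, 2.94 times in the second and 5.93 times in the third. Female VAT Tregs were not compared with spleen Tregs by a test, and the groups differ in sex and tissue. Both female libraries lay above both spleen libraries at 23 of the 37 V regions, where 20.9% of all regions did. Because the female libraries were part of the contrast that chose the locus, this count is no separate evidence. At the region near Trav16 and assigned to Trav8-2, from 53741396 to 53741517, the female libraries held 27 counts together and the male VAT libraries 1. At another region assigned to Trav8-2 and closer to it, from 53738079 to 53738226, they held 22 and 12. At Trav17 from 53794627 to 53794736 the female libraries held 1.50 and 2.35 CPM and the male VAT libraries 0.0634 and 0.32 CPM.

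The downstream J segments and Trac did not follow the V segments. The 15497 bp region over Trac, from 54219814 to 54235311, which encodes the membrane-proximal constant domain of the alpha chain, held 105 and 118 CPM in spleen Tregs and 159 and 101 CPM in male VAT Tregs. Female VAT Tregs held 133 and 128 CPM there and the CD4 cells 101 and 129 CPM. The groups overlapped, and it was called in none of the 3 comparisons (adjusted p of 0.52 for VAT against spleen Tregs, 0.68 for VAT Tregs against CD4 cells and 0.94 for CD4 cells against spleen Tregs, edgeR). The log2 fold change of CD4 over spleen there was 0.04 ± 0.17. The region at the J segments Traj20 to Traj2, from 54204432 to 54204601, which includes Traj18 of the invariant receptor in its list, held 3.55 and 1.39 CPM in male VAT Tregs against 0.50 and 0.94 in female VAT Tregs, and was called in no tested comparison. The region just before Trac, from 54218873 to 54218996, ran from 1.39 to 3.52 CPM over the 8 libraries.

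The alpha locus ends near Dad1, a housekeeping gene. Of 10 regions assigned to genes flanking the alpha/delta locus, 0 were called in any of the 3 comparisons, while 4.64%, 5.18% and 2.07% of all regions were called higher in the 3 and 2.09%, 2.51% and 1.89% lower. The region over the Dad1 and Abhd4 promoters, from 54252160 to 54255845, held 29.1 and 31.9 CPM in CD4 cells, and spleen Tregs 33.9 and 37.9 CPM. Male VAT Tregs had 42.3 and 24.95 CPM and the female cells 33.1 and 36.8 CPM.

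The beta locus showed no such pattern. Its 12 regions summed to 165 and 159 CPM in spleen Tregs and to 158 and 160 CPM in female VAT Tregs. Male VAT Tregs had 197 and 177 CPM in sum, and the CD4 cells 170 and 216 CPM. The male VAT Treg and CD4 libraries overlapped each other and lay above the spleen and female libraries, which also overlapped. Both CD4 libraries lay above all 6 Treg libraries at 0 of the 12, against 31 of the 37 alpha and delta V regions. Over all regions 7.47% did so, and with 12 regions a count of 0 is near that share.

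Male VAT Tregs were higher than spleen Tregs at 2 beta regions, where 4.64% of all regions were called higher. At the region next to the diversity segment Trbd1, assigned to Trbj1-1 and other J segments, from 41532556 to 41533025, male VAT Tregs held 13.7 and 11.4 CPM and spleen Tregs 6.67 and 5.13 CPM. Female VAT Tregs held 8.88 and 9.27 CPM and CD4 cells 8.47 and 11.2 CPM there. Both male VAT Treg libraries lay above the other 6, and the change from spleen of 1.12 ± 0.25 (edgeR, adjusted p = 0.00045) was lost only without spleen replicate 2. At Trbv12-1, from 41112994 to 41113638, male VAT Tregs held 23.2 and 23.9 CPM and spleen Tregs 15.3 and 14.4 CPM (0.67 ± 0.20, edgeR, adjusted p = 0.0204). That call was lost without either spleen library, without male VAT replicate 1, and with scaling factors from regions under 1000 bp, and regions below 1000 bp took 5.63% of the counts of male VAT replicate 1, beside 3.64% to 4.42% in the other libraries.

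Against the CD4 cells, 1 beta region was called lower in male VAT Tregs, where 2.51% of all regions were. It runs from 41540900 to 41545721 over Trbd2 and the second J cluster and is also assigned to the constant segment Trbc1. Male VAT Tregs held 16.3 and 11.8 CPM there and CD4 cells 15.8 and 28.1 CPM, so that the 2 groups overlapped, and the change of -0.65 ± 0.21 (edgeR, adjusted p = 0.0371) kept its call in 7 of 16 alternatives. Between CD4 cells and spleen Tregs 0 of 12 beta regions were called by edgeR, DESeq2 or limma-voom. In edgeR 2.07% of all regions were called higher and 1.89% lower, and 0 of 12 is near these shares. At an unadjusted p in edgeR, 2 were higher. The share of all regions at that p is not given here, so nothing is read from this count. The region over Trbv31, assigned to the constant segment Trbc2, from 41550378 to 41558657, held 63.6 and 90.4 CPM in CD4 cells and 62.1 and 62.3 in spleen Tregs, a log2 fold change of 0.31 ± 0.17 (edgeR, adjusted p = 0.38).

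The gamma region among the 55, at Trgv2 and the constant segment Tcrg-C4 on chromosome 13 from 19355116 to 19357673, held 11.3 and 9.79 CPM in spleen Tregs and 9.44 and 12.7 CPM in CD4 cells. Male VAT Tregs had 6.21 and 7.78 CPM, and the female cells 6.68 and 8.92 CPM. Both male VAT libraries lay below both spleen and both CD4 libraries, and the region was called in none of the 3 comparisons (adjusted p of 0.14, 0.090 and 0.91, edgeR). The 3 regions assigned to the gamma V segments Tcrg-V4 to Tcrg-V7, on chromosome 13 between 19161411 and 19184078, are not among the 55. In sum they held 21.8 and 22.6 CPM in spleen Tregs, 25.8 and 25.7 CPM in male VAT Tregs, 20.3 and 20.1 CPM in female VAT Tregs, and 31.6 and 19.6 CPM in CD4 cells. CD4 replicate 1 was the highest and CD4 replicate 2 the lowest of the 8 libraries. In edgeR, 0 of the 3 regions were called in any of the 3 comparisons, and 0 had an unadjusted p below 0.05. The shares of all regions called in 1 direction ran from 1.89% to 5.18%, so nothing is read from these counts.

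Of 44 regions of the CD3 chains and coreceptors, which carry the receptor's signal, 2 were called higher and 2 lower in male VAT than in spleen Tregs, 0 higher and 4 lower than in CD4 cells, and 4 higher and 0 lower in CD4 cells than in spleen Tregs. Over all regions the shares called higher and lower were 4.64% and 2.09%, 5.18% and 2.51%, and 2.07% and 1.89% in these comparisons. At Cd247, the zeta chain, from 165837628 to 165837858 on chromosome 1, CD4 cells held 6.88 ± 0.469 and spleen Tregs 1.14 ± 0.243 CPM (2.53 ± 0.42, edgeR, adjusted p = 1.5e-06). Of 28 regions of the recombination enzymes and repair factors that carry out V(D)J joining, 2 and 1, 2 and 1, and 1 and 1 were called higher and lower in the same 3 comparisons, to be read against the same shares.

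Of 149 regions of factors that regulate the receptor loci, 10 were called higher and 7 lower in CD4 cells than in spleen Tregs, where 2.07% of all regions were called higher and 1.89% lower. In male VAT Tregs 13 were higher and 11 lower than in spleen Tregs, beside 4.64% and 2.09% of all regions. Against CD4 cells 14 were higher and 15 lower in male VAT Tregs, beside 5.18% and 2.51%. At Tcf7, which encodes the T cell factor TCF-1, from 52314131 to 52314602 on chromosome 11, CD4 cells held 16.4 ± 4.95 CPM, spleen Tregs 4.60 ± 0.674 and male VAT Tregs 1.95 ± 1.10 CPM (CD4 over spleen 1.82 ± 0.29, edgeR, adjusted p = 2.8e-07). At Runx1, from 92641123 to 92641384 on chromosome 16, CD4 cells held 7.89 ± 1.08 and spleen Tregs 1.56 ± 0.494 CPM (2.27 ± 0.40, edgeR, adjusted p = 9.3e-06). Another Runx1 region, from 92793839 to 92794104, was highest in male VAT Tregs of these 3 groups. They held 5.03 ± 2.74 CPM there, CD4 cells 0.554 ± 0.579 and spleen Tregs 0.661 ± 0.0780 CPM. Whether Tcf7 or Runx1 moves with the V regions was not tested.

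Markers of other cells that a sort of VAT could hold were also counted. Of 9 regions of B cell genes 0 were higher and 1 lower in CD4 cells than in spleen Tregs, and their sum was 104 and 105 CPM in CD4 cells and 74.7 to 110 CPM in the Treg libraries. Among regions of CD8 and NK cells (2), stromal and endothelial cells (16) and adipocytes (9), 0 were called in this comparison, and of 11 myeloid regions 1 was higher and 1 lower, beside the same 2.07% and 1.89% of all regions. Ms4a1, Cd8a, Ncr1, Klrd1, Lyz2, Csf1r, Adgre1 and Lep had no region. Their part in the V levels was not tested.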

How the data were processed

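Open chromatin was measured by ATAC-seq in 8 libraries, 2 per group. Raw counts for every region stand in 1 table and log2 CPM values in 1 file per library, both deposited by the authors. Coordinates are on mm10 (GRCm38), per the labels. Tools in the submitters' processing notes are HOMER 4.9, Subread 1.6.2, limma and featureCounts, with no roles given. How regions were called is not given in the sources used here, so a region may be in the table because of the libraries in which it is high. The deposited log2 values served 1 alternative; they leave out 3511 entries, and 54 of the 55 receptor regions are in them.

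The table's 62205 entries were reduced to 46624 distinct regions; 1 mitochondrial region and 111 others on unplaced sequence or without a gene were left out. edgeR 4.0.16 in R 4.3.3 was used (filterByExpr, TMM factors of 0.907 to 1.06, 1 fit of all libraries with 4 residual degrees of freedom, quasi-likelihood F test, Benjamini-Hochberg adjustment over 45709 regions). The approximate standard error is the fold change on the log2 scale over the root of F. For 1 to 3 counts in a group a ratio of counts is given with an exact 95% interval. The fit was tested on simulated data. DESeq2 1.42.0 and limma 3.58.1 were alternatives, with other scaling, no filter, a replicate block and each library left out in turn. Members, stretches and lists were chosen with earlier results of these data known. Regions named were the constant and invariant-receptor segments, the 10 largest called changes per direction and comparison, and the 10 lowest and highest of the untested contrast; Trav8d-2 was named after its values were seen.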

Additional observations from a re-analysis of the deposited data

How the results depend on the processing

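No called value reversed under any setting. Of 39 called changes at single regions named, 15 kept their call in all 16 settings; the others were lost in at least 1, mostly without CD4 replicate 1. In male VAT against spleen Tregs, 1 alpha/delta region was called lower with the replicate block and 1 with limma on the deposited log2 values, and 1 beta region higher and 1 lower with factors from regions under 1000 bp. For male VAT Tregs against CD4 cells, 0 beta regions were called lower by library size alone, the replicate block, DESeq2, limma-voom or the deposited log2 values. Between CD4 cells and spleen Tregs, 1 beta region was called higher on the deposited log2 values. The cause of these was not tested.

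With each library left out in turn, a lone library being assumed to vary like the other groups, counts ranged as follows. For VAT against spleen Tregs they were 0 to 1 higher and 0 to 1 lower in alpha/delta, and 0 to 3 higher and 0 to 1 lower in beta. For VAT Tregs against CD4 cells they were 0 higher and 14 to 35 lower in alpha/delta, and 0 to 1 either way in beta. For CD4 cells against spleen Tregs they were 7 to 34 higher and 0 lower in alpha/delta, and 0 to 1 higher and 0 lower in beta.

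Libraries with the same replicate number showed little shared deviation from their group means (correlations from -0.146 to 0.0666). This cannot show whether they were paired, and the labels do not say. The block left 33 alpha/delta regions lower in VAT Tregs than in CD4 cells and 32 higher in CD4 cells than in spleen Tregs, the same regions as without it. Few counts per V region, 81 at most, limit the precision of single folds.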
